A study of Mus musculus with 6 samples.

Results

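Polycomb, NuRD, SIN3 and SWI/SNF are multi-subunit machines that modify or move nucleosomes, and the transcripts of 59 genes that encode their subunits or related histone regulators were followed here in CD133+ and CD133- cells of a mouse pancreatic cancer line. The genes were taken from a list of symbols, and every bead-array probe whose platform annotation gave one of these symbols alone was used, with the probes of a gene kept apart. Of the 59 genes, 57 had 117 probes among the 19057 genes named on the array. A probe was tested when its detection p-value, which ranks its signal among the array's negative controls, was under 0.05 on at least 3 of the 6 arrays. That held for 84 of the 117 probes and 52 of the 59 genes, 30 of them with 1 tested probe and 22 with several.

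The line, KPC001, was derived from the KPC mouse model, in which pancreatic cancer arises through engineered alleles, and was grown in high-glucose medium with serum and no treatment. CD133 is a surface glycoprotein encoded by Prom1 and used to separate candidate tumour-initiating cells. Total RNA of 3 CD133+ and 3 CD133- samples was each hybridised in 1 colour to 1 array of 45281 probes, and the study asked which genes differ between the populations. All samples come from this single line, and the labels name no allele or agent that differs between the groups. They do not say whether the replicates were separate cultures or sorts, and the p-values therefore reflect no more than the variation among these 6 samples, possibly technical.

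Between 17123 and 18057 probes were detected on an array, 37.8% to 39.9% of all, including 81 to 86 of the 117 chromatin probes. Prom1 was detected on no array, so its transcript does not check the CD133 labels. Of 9 ductal epithelial markers 8 had a tested probe, none of their 13 probes passed, and Epcam was detected on no array. Their summed linear intensity was 26441 to 27125 on the CD133- arrays and 24409 to 25286 on the CD133+ arrays. Bright probes weigh most in this sum, and the brightest, of Krt8 and Krt18, had log2 differences (CD133+ minus CD133-) of -0.06 and -0.21. The median over the 13 probes was -0.06. At an unadjusted p under 0.05 (limma), 2 probes were higher and 1 was lower, so the markers did not all go the same way. Over all tested probes the shares were 9.08% higher and 7.53% lower. Whether the levels of marker genes bear on the results below was not tested. In RNA of whole populations, fewer cells that express a gene and less RNA per cell cannot be told apart. Of the leukocyte, endothelial, fibroblast and acinar marker lists, 1 gene each was tested (Cd14, Kdr, Col1a1 and Cela1), and none passed. The summed intensity of the leukocyte list was 1064 to 1124 on the CD133- arrays and 1145 to 1322 on the CD133+ arrays. This sum came mostly from the bright Cd14 probe, with a log2 difference of 0.12 (adjusted p = 0.566, limma). Cd3e and Itgam were detected on no array. For the fibroblast list the sum was 205 to 223 and 161 to 195, and its Col1a1 probe gave -0.27 (adjusted p = 0.348, limma). The sums of the endothelial and acinar lists overlapped between the groups.

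Polycomb repressive complex PRC2 methylates lysine 27 of histone H3, and PRC1 ubiquitinates histone H2A and compacts chromatin; both keep developmental genes silent. NuRD joins a nucleosome-remodelling ATPase to histone deacetylases, SIN3 is a second deacetylase scaffold, and SWI/SNF complexes use ATP to slide or evict nucleosomes. Subunits of SWI/SNF, such as ARID1A, are frequently mutated in human pancreatic cancer, and several complexes share subunits or can exchange one paralogue for another.

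Transcripts of 4 genes were higher in CD133+ cells, and no member probe was lower at the same threshold. They were Rbbp7, a histone-binding subunit shared by PRC2, NuRD and SIN3, Gatad2b, a structural subunit of NuRD, Pcgf3, a RING partner of variant PRC1, and Spin1, a reader of methylated histone H3 that belongs to none of these complexes. Their differences, given throughout as log2 intensity in CD133+ minus CD133- cells ± the fitted standard error (3 arrays per group), lay between 0.53 and 0.83. The genes of SWI/SNF contributed no probe that passed. The absence of lower probes depended on the processing. On uncorrected intensities and on the authors' intensities, 3 chromatin probes, 1 each of Rbbp4, Chd4 and Mta3, passed as lower beside 11 higher ones. With a variance trend and robust fit they passed beside 10 higher ones. Over all 17219 tested probes, the lower calls were 362, 321 and 363 in these settings, in that order, against 48 as reported. The higher calls were 746, 836 and 733, against 216. With a detection p under 0.01 on all arrays, 8 passed as higher and 1, of Rbbp4, as lower. Under that filter, 421 of all 13339 tested probes passed as higher and 134 as lower. The higher calls depended on the processing as well. Only Gatad2b passed after a median shift. No chromatin probe passed with any 1 array left out or with the replicate number as a block. A further Spin1 probe, ILMN_1260507, gave -0.16 ± 0.11 with overlapping groups. Without background correction the passing probes of Gatad2b, Pcgf3 and Spin1 fell to differences of 0.22 to 0.36.

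In numbers, 7 of the 84 tested probes passed an adjusted p under 0.05 (limma, two-sided, Benjamini-Hochberg over all 17219 tested probes), a share of 8.33%. Over all tested probes the share was 1.53%, with 1.25% higher and 0.279% lower in CD133+ cells. At an unadjusted p under 0.05, 12 chromatin probes were higher and 8 lower, or 23.8%, against 16.6% of all tested probes (9.08% higher and 7.53% lower). The 3 CD133+ arrays did not overlap the 3 CD133- arrays for 22 of the 84 probes, 26.2%, of which 13 were higher and 9 lower. Over all tested probes the groups did not overlap for 23.1%, with 11.5% higher and 11.6% lower, so this share lay near the background. Of the 7 probes, 3 belong to Rbbp7 and 2 to Spin1, which lies outside these complexes, and probes of the same gene are not independent. The genes were chosen with earlier results of these data known, so the shares are given as description only.

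Most member probes differed little. The median difference was 0.015 over the 84 chromatin probes and -0.016 over all tested probes, and the median standard error was 0.109 and 0.112. For 63 of the 84 probes, 75%, the groups differed by less than 1.2-fold, against 80.6% of all tested probes. The 77 probes that did not pass ranged from -0.56 for a probe of Rbbp4 to 0.66 for a second probe of Gatad2b. A p-value above the threshold does not show that a transcript was equal in both populations.

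**Figure D1:**
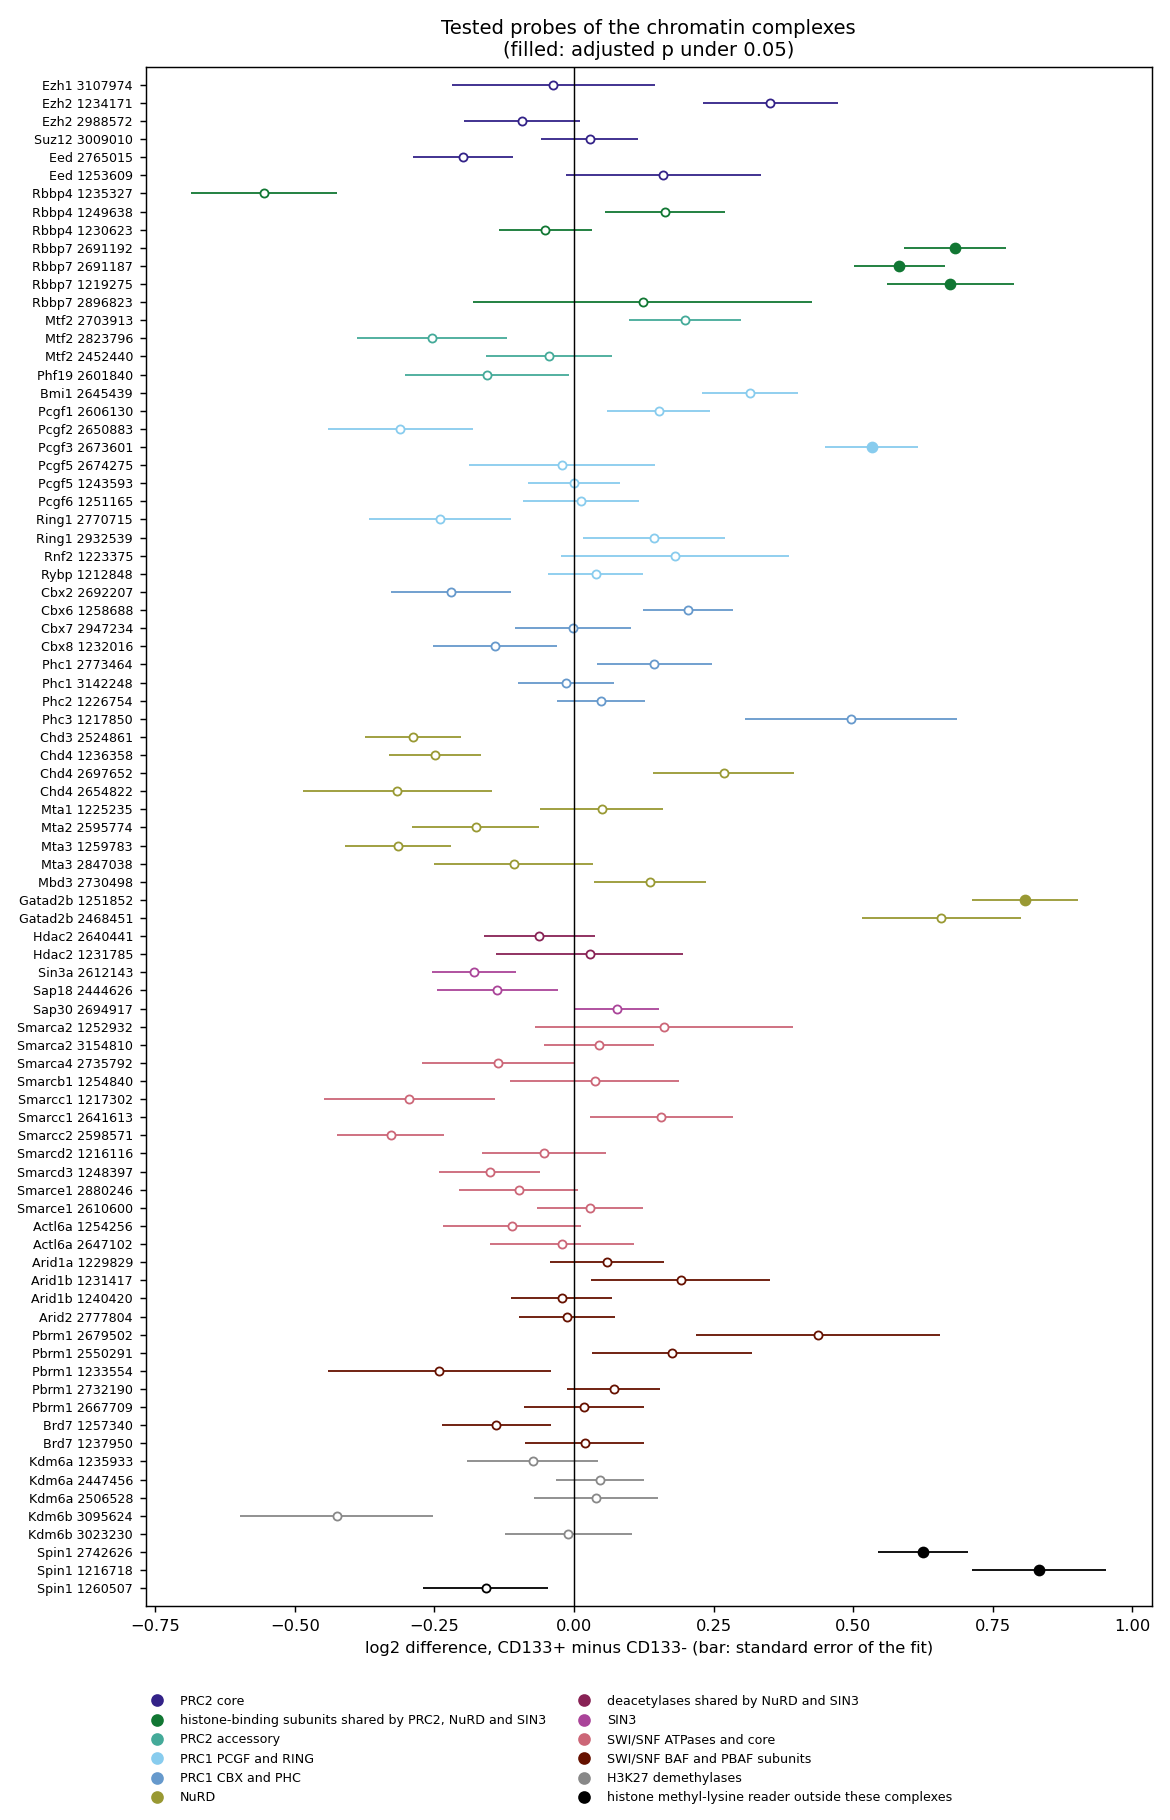
Log2 difference (x axis, CD133+ minus CD133-, the bar being the fitted standard error from 3 arrays a group) of the 84 tested probes, one per row and coloured by complex. Filled points are the 7 probes past an adjusted p of 0.05: 3 of Rbbp7, 2 of Spin1 and 1 each of Gatad2b and Pcgf3, all to the right of 0.

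The annotated promoters of the 4 genes that passed, and of Rbbp4, the paralogue of Rbbp7, are shown because these are the transcripts on which the results turn. Each runs 5′ to 3′ on the gene's strand from 250 bases before to 50 bases after the transcription start that RefSeq gives in mouse build GRCm38.p6, and for Gatad2b and Spin1, with 2 and 3 annotated starts, the most upstream start is printed. Capitals mark CCAAT boxes (CCAAT, bound by NF-Y) and GC boxes (GGGCGG, bound by SP1 family factors), each searched on both strands, so that ATTGG and CCGCCC are capitalised too.
Rbbp7 (chrX:162760122-162760421, plus strand): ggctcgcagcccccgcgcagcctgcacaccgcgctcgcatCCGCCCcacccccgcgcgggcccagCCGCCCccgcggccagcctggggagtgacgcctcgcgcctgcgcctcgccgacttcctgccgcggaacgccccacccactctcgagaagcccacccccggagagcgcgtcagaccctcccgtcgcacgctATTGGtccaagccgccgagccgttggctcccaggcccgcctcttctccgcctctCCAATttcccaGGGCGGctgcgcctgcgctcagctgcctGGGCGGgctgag
Rbbp4 (chr4:129335321-129335620, minus strand): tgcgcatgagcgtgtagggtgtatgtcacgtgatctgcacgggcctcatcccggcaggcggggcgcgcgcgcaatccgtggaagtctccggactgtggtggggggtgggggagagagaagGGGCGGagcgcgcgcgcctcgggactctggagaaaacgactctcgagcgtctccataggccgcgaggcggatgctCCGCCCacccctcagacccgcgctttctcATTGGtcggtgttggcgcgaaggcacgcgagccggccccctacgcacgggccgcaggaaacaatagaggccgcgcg
Gatad2b (chr3:90292931-90293230, plus strand): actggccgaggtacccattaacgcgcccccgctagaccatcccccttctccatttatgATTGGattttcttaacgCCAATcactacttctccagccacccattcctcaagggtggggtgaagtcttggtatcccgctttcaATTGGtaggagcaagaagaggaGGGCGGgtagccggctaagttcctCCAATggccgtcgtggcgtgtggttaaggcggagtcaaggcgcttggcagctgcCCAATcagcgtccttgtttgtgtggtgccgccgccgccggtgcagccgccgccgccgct
Pcgf3 (chr5:108461009-108461308, plus strand): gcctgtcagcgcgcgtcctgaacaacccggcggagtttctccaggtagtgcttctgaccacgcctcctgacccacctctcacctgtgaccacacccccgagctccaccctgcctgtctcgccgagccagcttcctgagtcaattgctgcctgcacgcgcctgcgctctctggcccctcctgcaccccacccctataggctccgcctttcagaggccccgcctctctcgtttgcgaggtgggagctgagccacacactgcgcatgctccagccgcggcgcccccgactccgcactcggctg
Spin1 (chr13:51100630-51100929, plus strand): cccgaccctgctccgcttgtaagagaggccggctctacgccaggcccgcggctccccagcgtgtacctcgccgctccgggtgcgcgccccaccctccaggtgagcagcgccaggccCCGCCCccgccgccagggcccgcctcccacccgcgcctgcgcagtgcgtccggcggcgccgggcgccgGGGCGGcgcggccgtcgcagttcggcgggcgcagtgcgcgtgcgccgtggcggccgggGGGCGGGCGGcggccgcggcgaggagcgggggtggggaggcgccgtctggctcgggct

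The 5 promoters shared no single arrangement of these motifs. The Rbbp7 window held 2 CCAAT boxes and 4 GC boxes, and that of Rbbp4 held 1 and 2. Gatad2b had 5 CCAAT boxes and 1 GC box, Spin1 had none of the first and 4 of the second, with a pair overlapping, and Pcgf3 had neither. None of the 5 held a TATA box (TATAAA, either strand), and an E-box (CACGTG) was found in that of Rbbp4 alone. They were rich in G and C, from 59.3% in Gatad2b to 82.7% in Spin1.

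A GC box was present in 51 of the 62 promoters annotated for 49 of the chromatin genes, 82.3%, and in 35.7% of all 32851 promoters of that length. A CCAAT box was present in 35.5% and 37.4%, a TATA box in 6.5% and 13.6%, and an E-box in 14.5% and 7.2%. The full set of promoters includes those of non-coding genes. These matches describe letters in a window, not bound sites.

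Rbbp7 and Rbbp4 encode paired WD-repeat proteins that hold histone tails for PRC2, NuRD and SIN3 alike. Rbbp7 was higher in CD133+ cells at 3 of its 4 tested probes. Its probe ILMN_2691192 read a log2 intensity of 10.20, 10.10 and 10.26 on the CD133- arrays and 10.96, 10.87 and 10.77 on the CD133+ arrays. All 3 CD133+ arrays were above all 3 CD133- arrays, a difference of 0.68 ± 0.09 or 1.6-fold, with a limma adjusted p of 0.023. The probe ILMN_2691187 read 10.03, 10.06 and 10.03 on the CD133- arrays and 10.71, 10.56 and 10.61 on the CD133+ arrays. Here too the groups stood apart, by 0.58 ± 0.08 (adjusted p = 0.028 by limma). The third, ILMN_1219275, read 9.62, 9.93 and 9.89 on the CD133- arrays and 10.54, 10.57 and 10.36 on the CD133+ arrays, and differed by 0.67 ± 0.11 with an adjusted p of 0.0407 by limma.

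The fourth Rbbp7 probe, ILMN_2896823, gave no such separation. It read 6.14, 5.85 and 5.46 on the CD133- arrays and 5.24, 6.29 and 6.29 on the CD133+ arrays, so that the first CD133+ array was the lowest of all 6 and the groups overlapped. Its difference was 0.12 ± 0.30, with the largest standard error of the chromatin probes, and its deposited intensity of 136 to 176 stood against a median of 115 to 123 over all probes of an array, with as few as 14 beads. The differences of the 3 passing probes were not shown to differ from that of this probe (limma on the within-array difference of 2 probes, adjusted p from 0.455 to 0.531 over all same-gene pairs). A further probe of Rbbp7 was detected on no array.

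With arrays normalized by a median shift in place of quantiles, the 3 passing Rbbp7 probes kept differences of 0.42 to 0.52 but none passed (limma adjusted p from 0.115 to 0.164). That setting also moved the median of all tested probes from -0.016 to -0.125.

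Rbbp4 gave no passing probe. Its probe ILMN_1235327 read 8.34, 7.85 and 7.998 on the CD133- arrays and 7.55, 7.48 and 7.50 on the CD133+ arrays, and every CD133+ array was below every CD133- array. The difference was -0.56 ± 0.13, 1.47-fold towards the CD133- cells, and missed the threshold with an adjusted p of 0.0917 (limma). The other tested probes, ILMN_1249638 and ILMN_1230623, gave 0.16 ± 0.11 and -0.05 ± 0.08 with overlapping groups. Within the gene, ILMN_1235327 differed from ILMN_1249638 by -0.72 ± 0.16 in the comparison of probes, which did not pass either (adjusted p = 0.0765, limma). The first of these probes passed in 4 of 9 alternative settings, with differences from -0.69 to -0.38. Probe sequences were not used here, so whether probes of these paralogues can bind each other's transcripts was not tested.

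**Figure D2:**
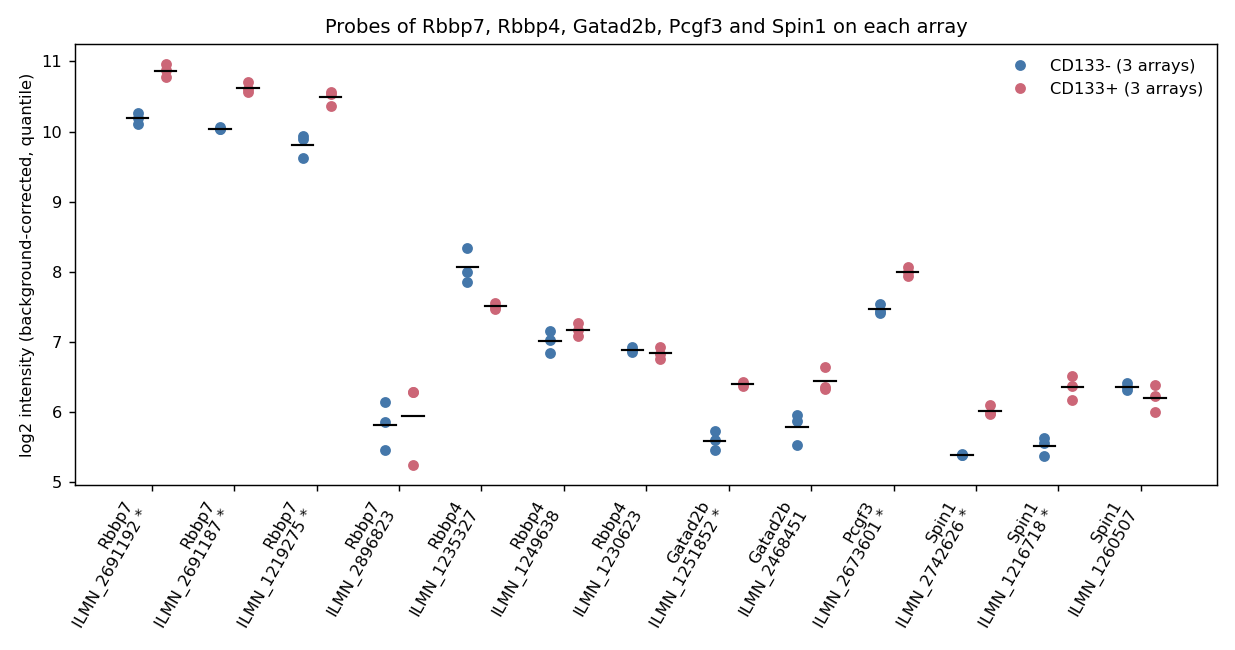
Log2 intensity (y axis, background-corrected and quantile-normalized) on each array for the tested probes of 5 genes, CD133- in blue and CD133+ in red, with a bar at each group mean of 3 arrays; an asterisk marks an adjusted p under 0.05. The groups stand apart for 3 of the 4 Rbbp7 probes, both Gatad2b probes, the Pcgf3 probe and 2 of the 3 Spin1 probes, higher in CD133+, and for 1 Rbbp4 probe, lower in CD133+; they overlap for the other 4 probes, and heights of different probes are not comparable.

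NuRD had 1 of 11 tested probes past the threshold. Gatad2b encodes p66-beta, which links the methyl-binding and deacetylase modules of the complex to its remodelling ATPase. Its probe ILMN_1251852 read 5.46, 5.73 and 5.60 on the CD133- arrays and 6.43, 6.37 and 6.41 on the CD133+ arrays. The CD133+ arrays were tightly grouped and above all CD133- arrays, by 0.81 ± 0.10 or 1.75-fold (adjusted p = 0.0175, limma). The second probe, ILMN_2468451, read 5.96, 5.87 and 5.53 on the CD133- arrays and 6.64, 6.33 and 6.36 on the CD133+ arrays. Its groups did not overlap either, and its difference of 0.66 ± 0.14 missed the threshold (adjusted p = 0.0742, limma), which it passed in 4 of 9 alternative settings. The 2 probes were not shown to differ from each other (0.15 ± 0.18, adjusted p = 0.749, limma on the within-array difference).

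The Gatad2b probe ILMN_1251852 was the only chromatin probe that passed in all 9 alternative settings other than the replicate block and the removal of an array. The size of its difference depended on the background correction: it was 0.32 without one and 0.33 in the authors' processed intensities. Its deposited intensity was 146 to 186, against array medians of 115 to 123. With the brightest probe per gene, Gatad2b was represented by ILMN_2468451 and did not pass (0.66, adjusted p = 0.0851, limma). With its probes averaged, Gatad2b passed (0.73, adjusted p = 0.0245, limma). The paralogue Gatad2a had no probe listed under its symbol.

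The NuRD ATPases Chd3 and Chd4, which supply the motor, gave no passing probe in the analysis as reported. Chd3 read 8.07, 8.02 and 8.19 on the CD133- arrays and 7.78, 7.79 and 7.85 on the CD133+ arrays, and the CD133+ arrays were all lower, with a difference of -0.29 ± 0.09 and an adjusted p of 0.157 (limma). For Chd4 the probe ILMN_1236358 gave -0.25 ± 0.08 without overlap, ILMN_2654822 gave -0.32 ± 0.17 and ILMN_2697652 gave 0.27 ± 0.13, the last 2 with overlapping groups. ILMN_1236358 passed as lower in 3 of 9 alternative settings, with differences from -0.41 to -0.21 and a lowest adjusted p of 0.0451 (limma). The Chd4 probes lay on both sides of 0, and the gap between ILMN_1236358 and ILMN_2697652 of -0.52 ± 0.15 did not pass (adjusted p = 0.151, limma).

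Among the MTA subunits, which recruit the deacetylases, Mta3 had the difference with the smallest p, -0.32 ± 0.10 at ILMN_1259783 (adjusted p = 0.16, limma), without overlap between the groups. It passed as lower in 3 of 9 alternative settings, with differences from -0.47 to -0.24. Its second probe gave -0.11 ± 0.14. Mta1 gave 0.05 ± 0.11 and Mta2 -0.18 ± 0.11, both with overlapping groups. Mbd3, the methyl-binding-domain protein of NuRD, gave 0.14 ± 0.10, and neither of the 2 probes of its paralogue Mbd2 was detected on any array.

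The deacetylase Hdac2, which serves both NuRD and SIN3, read 11.19, 11.03 and 10.98 on the CD133- arrays and 10.92, 10.96 and 11.12 on the CD133+ arrays at ILMN_2640441. Both groups covered the same range, with a difference of -0.06 ± 0.10. Its second probe ILMN_1231785 gave 0.03 ± 0.17, and Hdac1 had no probe listed. In SIN3, the scaffold Sin3a read 9.59, 9.61 and 9.57 on the CD133- arrays and 9.40, 9.44 and 9.39 on the CD133+ arrays. The CD133+ arrays were all lower, with a difference of -0.18 ± 0.08, 1.13-fold, which did not pass (adjusted p = 0.297, limma). The accessory subunits Sap18 and Sap30 gave -0.14 ± 0.11 and 0.08 ± 0.08. Over NuRD, SIN3 and the subunits they share, 23 probes of 13 genes were tested, 4 passed, 3 of them of Rbbp7, and the groups did not overlap for 11. Over all tested probes 1.53% passed and the groups did not overlap for 23.1%.

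PRC2 itself gave no passing probe among its catalytic and scaffold subunits. Ezh2, its main methyltransferase, read 9.36, 9.62 and 9.26 on the CD133- arrays and 9.68, 9.71 and 9.91 on the CD133+ arrays at ILMN_1234171. The CD133+ arrays were higher without overlap by 0.35 ± 0.12, 1.28-fold, with an adjusted p of 0.204 (limma), and this probe passed in 3 of 9 alternative settings. Its other tested probe, ILMN_2988572, gave -0.09 ± 0.10 with overlapping groups, and the gap between the probes, 0.44 ± 0.16, did not pass (adjusted p = 0.217, limma). The alternative methyltransferase Ezh1 was near the detection limit, detected on 3 of 6 arrays, and gave -0.04 ± 0.18.

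Suz12, the subunit around which PRC2 assembles, read 11.14, 11.21 and 11.05 on the CD133- arrays and 11.09, 11.21 and 11.18 on the CD133+ arrays. Its groups overlapped, with a difference of 0.03 ± 0.09. Eed, which binds trimethylated lysine 27 and stimulates the enzyme, gave -0.20 ± 0.09 at ILMN_2765015, where the CD133+ arrays were all lower, and 0.16 ± 0.17 at ILMN_1253609; neither passed. The Polycomb-like proteins, which guide PRC2 to DNA, gave no passing probe either. Mtf2 read 9.75, 9.79 and 10.00 on the CD133- arrays and 9.97, 10.02 and 10.15 on the CD133+ arrays at ILMN_2703913. There the difference was 0.20 ± 0.10, while ILMN_2823796 gave -0.25 ± 0.13 and ILMN_2452440 gave -0.04 ± 0.11, all with overlapping groups, and Phf19 gave -0.15 ± 0.15. Jarid2 and Phf1, further accessory subunits, had no tested probe.

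In PRC1, Pcgf3 was higher in CD133+ cells. PCGF proteins pair with the ubiquitin ligases RING1 and RNF2, and the PCGF present defines the kind of PRC1. Its probe ILMN_2673601 read 7.45, 7.41 and 7.54 on the CD133- arrays and 7.95, 8.06 and 7.99 on the CD133+ arrays. The CD133+ arrays were all above the CD133- arrays, by 0.53 ± 0.08 or 1.45-fold (adjusted p = 0.0359, limma). The call rests on this probe, since its other 2 probes were detected on no array. It did not pass after a median shift (0.41, adjusted p = 0.14) or when undetected probes were tested as well (adjusted p = 0.0616, limma in both).

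The other PCGF genes did not pass in the analysis as reported. Bmi1, the PCGF of a canonical PRC1 and a self-renewal factor in blood and neural stem cells, read 7.61, 7.81 and 7.70 on the CD133- arrays and 7.99, 8.05 and 8.03 on the CD133+ arrays. It was higher on every CD133+ array by 0.32 ± 0.09 (adjusted p = 0.132, limma), and passed in 2 of 9 alternative settings, uncorrected and authors' intensities, with a lowest adjusted p of 0.028. Its close relative Pcgf2, also known as Mel18, read 5.90, 5.90 and 6.23 on the CD133- arrays and 5.59, 5.89 and 5.63 on the CD133+ arrays. Here the CD133+ arrays were the lower ones, with a difference of -0.31 ± 0.13 (adjusted p = 0.286, limma) at a deposited intensity of 141 to 173. Pcgf1 gave 0.15 ± 0.09 without overlap, Pcgf6 gave 0.01 ± 0.10, and the 2 probes of Pcgf5 gave 0.00 ± 0.08 and -0.02 ± 0.17.

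The ligases themselves showed overlapping groups. Ring1 gave -0.24 ± 0.13 at ILMN_2770715 and 0.14 ± 0.13 at ILMN_2932539, and Rnf2 gave 0.18 ± 0.20 at a probe detected on 5 of 6 arrays. Rybp, which takes the place of CBX proteins in variant PRC1, gave 0.04 ± 0.09.

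The CBX proteins read methylated lysine 27, and the PHC proteins polymerise through their SAM domain. Cbx6 was higher on all CD133+ arrays by 0.20 ± 0.08 (adjusted p = 0.26, limma), a difference that ranged from 0.03 to 0.20 over 9 alternative settings and passed in none. Cbx2 gave -0.22 ± 0.11, Cbx8 gave -0.14 ± 0.11 and Cbx7 gave 0.00 ± 0.10, all with overlapping groups. Phc3 read 6.21, 6.71 and 6.41 on the CD133- arrays and 7.21, 7.03 and 6.58 on the CD133+ arrays. Its groups overlapped although their means differed by 0.50 ± 0.19 (adjusted p = 0.251, limma), since the third CD133+ array was below the second CD133- array. It passed in 3 of 9 alternative settings. Phc1 gave 0.14 ± 0.10 and -0.01 ± 0.09 at its 2 probes, and Phc2 gave 0.05 ± 0.08. Over the 22 tested genes of PRC1 and PRC2, without the shared histone-binding subunits, 1 of 29 probes passed and 24 differed by less than 1.2-fold, against 1.53% and 80.6% of all tested probes, so both counts lay near the background. The shared subunits, which also belong to PRC2 but were counted above with NuRD and SIN3, had 7 tested probes, of which 3 passed, all of Rbbp7.

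SWI/SNF had 24 tested probes for 14 genes, of which none passed (limma); 1 had an unadjusted p under 0.05, and 21 differed by less than 1.2-fold. The shares over all tested probes were 1.53%, 16.6% and 80.6%, so that no call among 24 probes lay near the background. The probe with an unadjusted p under 0.05 belongs to Smarcc2, which encodes a core scaffold also called BAF170. It read 6.45, 6.62 and 6.40 on the CD133- arrays and 6.26, 6.09 and 6.14 on the CD133+ arrays. Every CD133+ array was lower, a difference of -0.33 ± 0.10 or 1.25-fold, with an adjusted p of 0.151 (limma). The paralogue Smarcc1, or BAF155, gave -0.29 ± 0.15 at ILMN_1217302 and 0.16 ± 0.13 at ILMN_2641613, both with overlapping groups.

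The 2 alternative ATPases of SWI/SNF gave no passing probe. Smarca4, which encodes BRG1, read 7.26, 7.45 and 7.35 on the CD133- arrays and 7.01, 7.50 and 7.13 on the CD133+ arrays, a difference of -0.14 ± 0.14. Smarca2, which encodes BRM, read 9.74, 9.46 and 9.54 on the CD133- arrays and 9.65, 9.60 and 9.63 on the CD133+ arrays at ILMN_3154810, a difference of 0.04 ± 0.10. In both genes the groups overlapped. A further Smarca2 probe, ILMN_1252932, was detected on 3 of 6 arrays and gave 0.16 ± 0.23.

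Of the remaining core subunits, Smarcb1, a tumour suppressor lost in rhabdoid tumours, gave 0.04 ± 0.15. The BAF60 proteins bridge the complex to transcription factors, and Smarcd2 and Smarcd3 gave -0.05 ± 0.11 and -0.15 ± 0.09, the latter without overlap. Smarce1, or BAF57, gave -0.10 ± 0.11 and 0.03 ± 0.10 at its 2 probes. Actl6a, an actin-related subunit, gave -0.11 ± 0.12 and -0.02 ± 0.13. Smarcd1 had no tested probe.

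The subunits that separate the BAF from the PBAF form of SWI/SNF also gave no call. Arid1a, the DNA-binding subunit of BAF, read 6.32, 6.20 and 6.25 on the CD133- arrays and 6.50, 6.25 and 6.21 on the CD133+ arrays, with overlapping groups and a difference of 0.06 ± 0.10. Its alternative Arid1b gave -0.02 ± 0.09 at ILMN_1240420 and 0.19 ± 0.16 at the dim ILMN_1231417. For PBAF, Arid2 gave -0.01 ± 0.09, and the bromodomain subunit Brd7 gave -0.14 ± 0.10 and 0.02 ± 0.11.

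Pbrm1, the polybromo subunit of PBAF, had 5 tested probes. The one with the smallest p, ILMN_2679502, read 4.80, 5.52 and 5.68 on the CD133- arrays and 5.72, 5.67 and 5.92 on the CD133+ arrays. Its first CD133- array stood below the other 5, the groups overlapped, and the difference of 0.44 ± 0.22 had an adjusted p of 0.369 (limma). The other 4 lay between -0.24 and 0.17, and ILMN_2732190, with a deposited intensity of 1228 to 1441, gave 0.07 ± 0.08. Dpf2, a histone-reading BAF subunit, had no tested probe.

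The demethylases that remove the mark of PRC2 were measured as well. Kdm6a, also known as UTX, gave 0.05 ± 0.08, 0.04 ± 0.11 and -0.07 ± 0.12 at its 3 probes, all with overlapping groups. Kdm6b, or JMJD3, read 6.09, 6.11 and 5.57 on the CD133- arrays and 5.35, 5.73 and 5.41 on the CD133+ arrays at ILMN_3095624. There the groups overlapped, with a difference of -0.42 ± 0.17 and an adjusted p of 0.274 (limma). The second Kdm6b probe, ILMN_3023230, gave -0.01 ± 0.11, and the gap between the probes, 0.42 ± 0.19, did not pass (adjusted p = 0.339, limma).

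Spin1 was measured by 3 tested probes that did not give 1 answer. SPIN1 binds trimethylated lysine 4 of histone H3. The probe ILMN_2742626 read 5.39, 5.41 and 5.39 on the CD133- arrays and 5.97, 5.98 and 6.11 on the CD133+ arrays, a separation of 0.62 ± 0.08 or 1.54-fold (adjusted p = 0.023, limma). The probe ILMN_1216718 read 5.63, 5.55 and 5.37 on the CD133- arrays and 6.38, 6.51 and 6.17 on the CD133+ arrays, a separation of 0.83 ± 0.12 or 1.78-fold (adjusted p = 0.0287, limma). In both, all CD133+ arrays were higher. The third probe, ILMN_1260507, read 6.36, 6.42 and 6.32 on the CD133- arrays and 6.003, 6.38 and 6.23 on the CD133+ arrays. Its groups overlapped, with a difference of -0.16 ± 0.11.

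The disagreement between Spin1 probes was itself past the threshold for 1 pair. ILMN_1216718 exceeded ILMN_1260507 in its difference by 0.99 ± 0.16 (adjusted p = 0.0418, limma on the within-array difference over all same-gene pairs), and ILMN_2742626 exceeded it by 0.78 ± 0.15 (adjusted p = 0.056). The 2 passing probes had deposited intensities of 141 to 185, and the third had 163 to 190. Without background correction their differences were 0.22 and 0.32, still past the threshold. After a median shift they did not pass (adjusted p = 0.0616 and 0.052, limma). With 1 probe per gene chosen by brightness, Spin1 was represented by the third probe and did not pass.

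Across the 22 genes with several tested probes, 46 pairs of probes were compared, and the Spin1 pair was the 1 that passed. A gap that did not pass does not show that the probes of a gene agreed. Over all 7664 same-gene pairs on the array, 0.639% passed. At an unadjusted p under 0.05, 8 of the 46 pairs differed, 17.4%, against 15.9% of all pairs. They belonged to Chd4, Ezh2, Mtf2, Rbbp4 and Spin1. In none of the 22 genes did 2 probes lie on opposite sides of 0 with an unadjusted p under 0.05 each.

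Removing any 1 of the 6 arrays left no chromatin probe past the threshold, whether the array was CD133+ replicate 1, 2 or 3 or CD133- replicate 1, 2 or 3. The differences of all 7 probes kept their direction, which was fixed in advance because their groups did not overlap. For Gatad2b ILMN_1251852 they ran from 0.74 to 0.88, with limma adjusted p-values from 0.0591 to 0.0838. For Rbbp7 ILMN_2691192 they ran from 0.64 to 0.73, with limma adjusted p-values from 0.0683 to 0.0984. Over all probes, 7 to 14 passed with an array removed, against 264 with all 6.

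**Figure D3:**
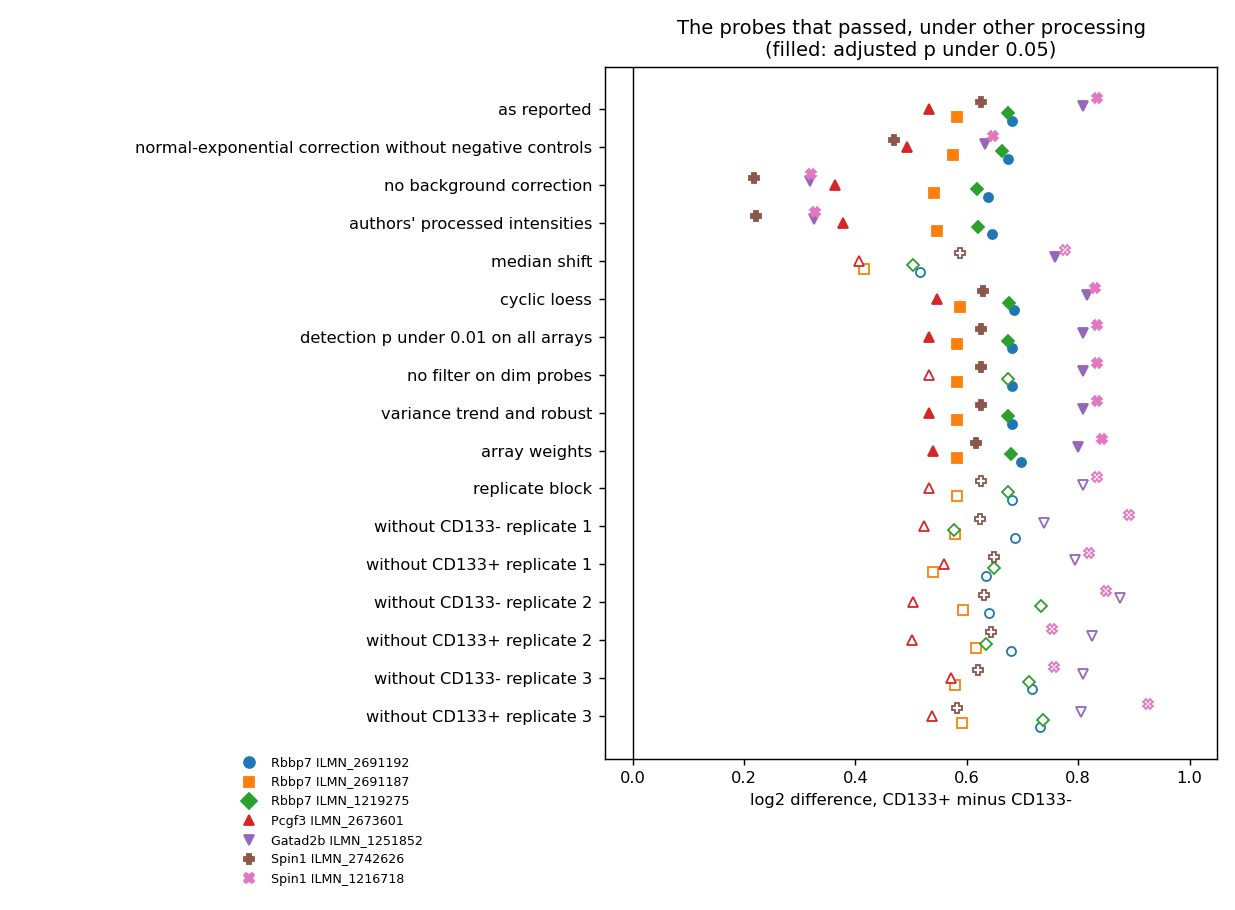
Log2 difference (x axis, CD133+ minus CD133-) of the 7 probes that passed, under each processing setting (rows), filled where the limma adjusted p was under 0.05. All points lie right of 0; every point is open in the rows that leave out 1 array or use the replicate number as a block, and the Gatad2b, Spin1 and Pcgf3 points move left without background correction.

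The members without a tested probe were Jarid2, Phf1, Mbd2, Smarcd1 and Dpf2, while Gatad2a and Hdac1 had no probe listed under their symbols. Of the 33 chromatin probes that were not tested, 25 were detected on no array and 8 on 1 or 2 arrays. Of the 5 genes with probes but no tested one, Smarcd1 came closest, with a probe detected on 2 arrays. A probe below the detection limit does not show that its transcript was missing from these cells.

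Other genes of the same pathways gave no call. Lists of further Polycomb genes, further NuRD and SIN3 genes, further SWI/SNF genes, and H3K4 methyltransferases with other remodellers held 58 tested genes and 99 tested probes. None of the 99 passed (limma), 10 had an unadjusted p under 0.05 and were higher, and 7 were lower, with a median difference of -0.01. These counts lay near the shares over all tested probes, 1.53% past the threshold and, at the unadjusted p, 9.08% higher and 7.53% lower. From each list the probe with the smallest p was E2f6, a repressor bound to variant PRC1, at 0.32 ± 0.10, Arid4a, a SIN3 subunit, at 0.45 ± 0.09, Actb, the actin shared with SWI/SNF, at -0.35 ± 0.09, and Chd1, a remodeller that binds methylated lysine 4, at 0.38 ± 0.09. The closest to the threshold was Arid4a, with an adjusted p of 0.0671 (limma). Other probes of these genes did not all go the same way: 3 further E2f6 probes lay between -0.12 and -0.07 and 2 gave 0.40 and 0.04, the other Arid4a probes gave 0.10 and -0.10, and the other Chd1 probes gave 0.32, -0.19 and -0.17. The other 4 Actb probes gave 0.27 ± 0.08, 0.24 ± 0.10, 0.19 ± 0.09 and -0.03 ± 0.09, so that probes of each of these 4 genes lay on both sides of 0.

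Textbook Polycomb targets, genes kept silent by PRC1 and PRC2 in many tissues, were in part below detection. Of 26 with a probe, 13 had a tested probe, and 8 were detected on no array, among them Pax6, Sox17 and Hoxd13. None of their 18 tested probes passed (limma), 2 had an unadjusted p under 0.05 and were higher, and 2 were lower. The smallest p was that of a probe of the cell-cycle inhibitor Cdkn1a, which gave -0.44 ± 0.13 (adjusted p = 0.156, limma), while its other probes gave -0.08 ± 0.08 and 0.31 ± 0.34.

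Genes of dividing cells were examined because some chromatin subunits, Ezh2 among them, are known to be expressed with proliferation. None of the 23 tested probes of 12 genes passed (limma). At an unadjusted p under 0.05, 3 were higher (of Mcm6, Mcm3 and Tyms) and 3 were lower (of Tyms, Pcna and Rrm2). Over all tested probes the shares were 9.08% higher and 7.53% lower. The summed linear intensity of the list, in which bright probes weigh most, was 14037 to 14462 on the CD133- arrays and 14190 to 14393 on the CD133+ arrays. A level sum does not show that each gene was level. The smallest p in the list was that of the Tyms probe ILMN_2441899, which was not detected on any CD133+ array and was at least 1.21-fold lower there (adjusted p = 0.0547, limma). A bright Tyms probe, ILMN_2484707, gave 0.22 ± 0.08.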

How the data were processed

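Total RNA of 3 CD133+ and 3 CD133- samples was measured on 1-colour bead arrays; groups came from the labelled cell population and replicate numbers from the titles, the title without a number being taken as replicate 1. The deposited scanner table gave, per the file headers, a mean bead intensity, its standard error, a bead number and a detection p-value per probe and array, with no background subtraction or normalization visible in the values. The authors also deposited processed intensities on a linear scale, made by a method not given in the sources used here.

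From the deposited intensity, background was corrected with limma 3.58.1 in R 4.3.3 (neqc, with the controls' level inferred from detection p-values, offset 16), followed by log2 and quantile normalization. The 17219 probes detected (p under 0.05) on 3 or more of 6 arrays were fitted with lmFit and eBayes (two-sided, no covariate), and p-values were adjusted by Benjamini-Hochberg over all of them. Within-array differences of same-gene probes were fitted likewise. The number of arrays limits the precision, and signals of dim probes depend on the background correction. The symbols of all 117 chromatin probes matched RefSeq by gene identifier; probes with several symbols were left out.

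The genes, lists and tests were chosen with earlier results of these data known. Values on every array are given for probes that passed, for the probe with the smallest p in each complex and for others a result turned on; paralogue pairs are given at every tested probe. Singled out after their values were seen were the per-array values of Chd3, Bmi1, Pcgf2, Suz12, Smarca2, Smarca4, Arid1a, the unpassed probes of Rbbp7, Rbbp4, Gatad2b and Spin1, and the further probes of Actb, E2f6, Arid4a, Chd1, Cdkn1a and Tyms. Alternatives covered background correction, the authors' intensities, normalization, the detection filter, the variance model, array weights, a replicate block, 1 value per gene and each array left out. Samples with the same replicate number did not deviate together (correlations 0.02, 0.002 and 0.018), and the numbers were not treated as pairs. The labels do not say whether same-numbered samples were paired, which these correlations cannot settle.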

Additional observations from a re-analysis of the deposited data

How the results depend on the processing

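The 7 passing chromatin probes kept their sign in every alternative run, and so did all 20 chromatin probes with an unadjusted p under 0.05. In many of these runs little else was possible, and the probes were chosen by their p on these same arrays. The kept signs therefore lend the differences no support. A changed filter, variance model or replicate block leaves the difference itself unchanged, and removing 1 array cannot reverse groups that do not overlap. Another background correction or normalization could have changed a sign. So could the removal of an array for the probes of Phc3 and Kdm6b, whose groups overlapped. Of 239 recomputed values of 15 named probes, 176 kept their side of the threshold, 57 no longer passed and 6 newly passed (Ezh2 and Phc3). Of the 15, only the 7 passing probes had a call to lose, so all 57 are theirs. The 176 include values of probes that did not pass as reported and still did not. Outside these 15, probes of Bmi1 and Gatad2b (higher) and of Chd4, Mta3 and Rbbp4 (lower) newly passed in 2 to 4 of 9 settings. Counts moved more, and the cause was not tested unless the setting itself changes what is tested. Chromatin probes past the threshold, 7 as reported, numbered 14 on uncorrected intensities and 14 on the authors' own (11 higher and 3 lower in each), 13 in a robust fit with a variance trend (10 and 3), 9 under the stricter filter (8 and 1), 1 after a median shift (Gatad2b), 2 with the brightest probe per gene (Rbbp7 and Pcgf3) and 3 when a gene's probes were averaged (Gatad2b, Pcgf3 and Rbbp7). The count over all tested probes, 264 as reported, was 1108 on uncorrected and 1157 on the authors' intensities, 1096 with the trend, 37 after the median shift, 555 with detection p under 0.01 on all arrays and 113 with no filter. Split by direction, 746 were higher and 362 lower on uncorrected intensities, and 836 and 321 on the authors', against 216 and 48. With the trend they were 733 and 363, and under the stricter filter 421 and 134. Same-gene probe pairs past the threshold, 49 in all and 1 among the chromatin genes as reported, numbered 112 and 2 with a normal-exponential fit without negative controls, 490 and 9 on uncorrected intensities, 494 and 9 on the authors', 171 and 3 under the stricter filter, and 21 and 0 with no filter. The chromatin median, 0.015 as reported, was -0.116 after the median shift (-0.125 over all probes), -0.01 with no filter, 0 with the brightest probe and -0.011 with the mean of probes. With the replicate number as a block (replicate block), 0 chromatin probes passed and 6 probes in all, with 2 same-gene pairs in all and 0 among the chromatin genes. This block pairs samples by number, and the labels do not say whether they were paired. Leaving out 1 array at a time gave 7 to 14 probes in all, 0 to 0 chromatin probes, 2 to 3 same-gene pairs with 0 among the chromatin genes, and a chromatin median of -0.006 to 0.02.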
